A study of Homo sapiens with 3 samples.

Results

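The genes described here serve squamous differentiation and the cornified envelope, and 10 were chosen by name out of 18132 genes with a probe set of their own on the array. They are IVL, SPRR1A, SPRR1B, SPRR3, SCEL, TGM1, CSTA, S100A8, S100A9 and EMP1. All 20 of their probe sets were used, of which 19 are assigned to 1 of these genes and 1 to both SPRR1A and SPRR1B. Expression was measured with PrimeView arrays in KYSE150, a cell line derived from a squamous cell carcinoma of the human esophagus. There were 3 arrays, 1 per group. The first was from cells transfected to overexpress LOXL2 Δe13, a splice form of lysyl oxidase like 2. The second was from cells transfected to overexpress wild-type LOXL2, and the third from cells that had received the empty vector. All 3 groups thus share the cell line and a transfection. The promoter that drives LOXL2, the time after transfection and whether the cells were pools or clones are not given in the sources used here.

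Stratified squamous epithelium renews itself from a basal layer, and cells that leave that layer make a protein shell, the cornified envelope, under the plasma membrane. Precursor proteins such as involucrin and the small proline-rich proteins are cross-linked to each other by transglutaminases, while protease inhibitors and calcium-binding S100 proteins are made in the same suprabasal cells. In the esophagus, which is squamous but does not normally form a dry horny layer, these genes mark the upper layers of the mucosa, and their loss is a known feature of squamous carcinomas there.

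Values are log2 signals after the robust multi-array average procedure (RMA), so a difference of 1 is 2-fold. A probe set was called above the floor when its signal reached 5.94, the median of all non-control values over the 3 arrays. Where a gene had several probe sets, the one with the highest mean signal stood for it, and the gene entered the comparisons when that probe set was above the floor on at least 1 array. With 1 array per group there is no spread between cultures and no test, so differences describe these arrays. The only repeat measurement is the scatter among the probe sets of a gene, whose pooled standard deviation was 0.13 when Δe13 was set against the empty vector, 0.16 when the wild type was, and 0.13 between both LOXL2 arrays. Brightness differs between probe sets for technical reasons, so levels are compared between arrays and not between genes.

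LOXL2 itself was measured by 4 probe sets, which did not all behave alike. Probe set 11718833_a_at read 5.06 in the empty vector array, 10.77 with Δe13 and 10.22 with the wild type. The same pattern was seen with 11718834_at, at 5.38, 7.94 and 8.07 in that order. Probe set 11751288_a_at read 7.46, 7.41 and 14.05, and so was higher with the wild type alone. Probe set 11718832_a_at was not higher in either LOXL2 array, at 8.81, 8.73 and 8.32. Of the 5 squamous epithelial markers measured, 5 were above the floor in the empty vector array and 4 in each LOXL2 array, among them the basal keratin KRT5 and the adherens junction cadherin CDH1. SOX2 made the difference between these counts, at 6.06 in the empty vector array, 5.88 with Δe13 and 5.63 with the wild type. It passed the floor only where it was highest, so the change in count carries no weight. Array medians lay between 5.93 and 5.95.

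The presumed promoters of EMP1 and SCEL are shown because these members were lower in both LOXL2 arrays, and those of IVL and SPRR1A because their genes stayed below or close to the floor. Each is a window of 300 bases in GRCh38.p14 from the RefSeq promoter table, read 5′ to 3′ on the gene's strand, with 250 bases before and 50 after the gene's start. The table held 8 of the 10 members, without CSTA and TGM1. The windows are chr12:13196476-13196775 for EMP1, chr13:77535456-77535755 for SCEL, chr1:152908296-152908595 for IVL and chr1:152983831-152984130 for SPRR1A, all on the plus strand. Capitals mark matches to TGANTCA, the site of AP-1, a transcription factor known for driving involucrin.

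EMP1: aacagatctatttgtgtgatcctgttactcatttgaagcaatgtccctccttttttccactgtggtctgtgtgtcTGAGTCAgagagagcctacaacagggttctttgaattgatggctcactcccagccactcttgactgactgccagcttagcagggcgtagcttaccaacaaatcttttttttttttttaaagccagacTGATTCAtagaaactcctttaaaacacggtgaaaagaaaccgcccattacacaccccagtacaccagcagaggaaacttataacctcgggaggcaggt
SCEL: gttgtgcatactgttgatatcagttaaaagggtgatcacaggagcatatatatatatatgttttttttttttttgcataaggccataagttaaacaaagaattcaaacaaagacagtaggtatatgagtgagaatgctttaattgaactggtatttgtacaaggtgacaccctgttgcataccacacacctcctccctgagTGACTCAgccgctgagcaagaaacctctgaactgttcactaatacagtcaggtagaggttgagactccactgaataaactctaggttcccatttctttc
IVL: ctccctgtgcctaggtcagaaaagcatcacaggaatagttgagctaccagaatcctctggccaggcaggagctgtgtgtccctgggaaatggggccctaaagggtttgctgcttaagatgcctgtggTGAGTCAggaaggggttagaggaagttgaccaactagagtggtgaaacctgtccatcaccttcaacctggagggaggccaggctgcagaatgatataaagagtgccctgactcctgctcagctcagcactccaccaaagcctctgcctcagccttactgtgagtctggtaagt
SPRR1A: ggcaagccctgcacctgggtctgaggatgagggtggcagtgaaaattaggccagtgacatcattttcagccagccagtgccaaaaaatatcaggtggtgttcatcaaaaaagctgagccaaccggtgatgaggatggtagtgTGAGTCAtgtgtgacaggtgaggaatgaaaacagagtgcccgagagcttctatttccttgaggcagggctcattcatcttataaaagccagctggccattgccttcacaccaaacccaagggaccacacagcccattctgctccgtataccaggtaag

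Matches were searched on both strands. TGANTCA was found in 6 of the 8 members, EMP1 and SPRR1B with 2 matches each and SCEL, IVL, SPRR1A and SPRR3 with 1 each, and it occurs in 7.71% of the 35116 windows in the table. S100A8, which has 3 windows in the table, and S100A9 held none. TATAAA, the core of the TATA box, was found in IVL, SPRR1A, SPRR3, S100A8 and S100A9, against 11.5% of all windows. AGGAAG, a form of the core bound by ETS factors, was found in 5 of the 8 members, against 33.6% of all windows. A member was counted when any of its windows matched, while the shares are of single windows, so the 2 are not the same measure. In IVL 1 of its 2 AGGAAG matches overlapped the TGANTCA match by a base. EMP1 and SCEL held neither TATAAA nor AGGAAG. So the AP-1 letters occur both in members that differed and in members that lay below or close to the floor. A match describes the letters and is no evidence of binding.

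Most members gave little signal in these cells. Of the 10 genes, 4 were above the floor on at least 1 array, and these were CSTA, EMP1, SCEL and, barely, SPRR1A. The other 6 were below it on all 3 arrays, with signals between 2.93 and 5.87. By probe set, 11 of 20 were above the floor on at least 1 array. SPRR1A 11754180_s_at and SCEL 11748044_a_at passed it in the empty vector array alone, where they were highest. At signals near or below the floor much of the reading can be background, so differences are uncertain and can appear smaller than they are. CSTA, EMP1 and SCEL were lower in both LOXL2 arrays than in the empty vector array.

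**Figure D1:**
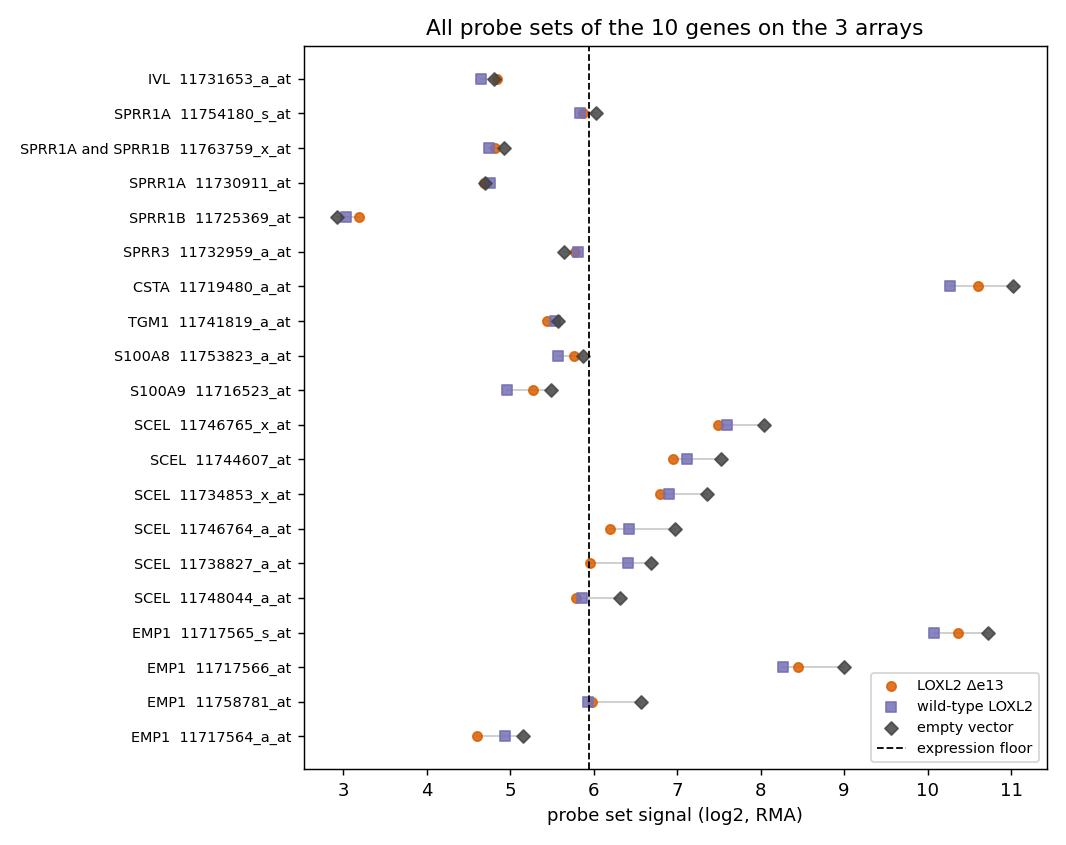
Signal (log2, horizontal axis) of each of the 20 probe sets on the 3 arrays, 1 point per array, with the floor of 5.94 as a dashed line. The empty vector point lies to the right of both LOXL2 points for CSTA and for every probe set of EMP1 and SCEL, while IVL, the SPRR genes, TGM1 and the S100 genes lie near or to the left of the floor.

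CSTA encodes cystatin A, an inhibitor of cysteine proteases that is itself cross-linked into the envelope. Its single probe set, 11719480_a_at, read 11.02 in the empty vector array, 10.60 with Δe13 and 10.27 with the wild type. The empty vector array was thus highest and the wild-type array lowest. The log2 difference from the empty vector was -0.42 (1.34-fold lower) for Δe13 and -0.75 (1.69-fold lower) for the wild type. Both are larger than the spread between probe sets, but CSTA has no further probe set to check them.

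EMP1, epithelial membrane protein 1, is a small protein with several membrane spans that is made in suprabasal squamous cells. Its brightest probe set, 11717565_s_at, read 10.72 in the empty vector array, 10.36 with Δe13 and 10.08 with the wild type. These are differences of -0.36 and -0.64, or 1.29-fold and 1.56-fold lower. Probe set 11717566_at read 9.0, 8.45 and 8.27 in the same order, and 11758781_at read 6.57, 5.98 and 5.94. On these 3 probe sets the empty vector array was highest and the wild-type array lowest each time. Their differences ranged from -0.59 to -0.36 for Δe13 (SD 0.12, n = 3 probe sets) and from -0.73 to -0.63 for the wild type (SD 0.056, n = 3 probe sets). On 11758781_at the wild-type reading was just below the floor, and the LOXL2 arrays differed by only 0.04. The remaining one, 11717564_a_at, was below the floor on all arrays, at 5.16, 4.60 and 4.94, and gave the opposite order of the LOXL2 arrays.

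SCEL encodes sciellin, a precursor protein of the envelope. Probe set 11746765_x_at read 8.04 in the empty vector array, 7.49 with Δe13 and 7.60 with the wild type. Here the Δe13 array was the lowest of the 3. The differences from the empty vector were -0.55 (1.47-fold lower) and -0.44 (1.36-fold lower). All 6 probe sets of SCEL had this order, with differences from -0.78 to -0.53 for Δe13 (median -0.57, SD 0.10, n = 6 probe sets) and from -0.55 to -0.27 for the wild type (median -0.45, SD 0.093, n = 6 probe sets). The dimmest, 11748044_a_at, read 6.32, 5.79 and 5.87 and passed the floor in the empty vector array alone, where it was highest. It gave the -0.53 for Δe13 and carries no weight in these counts. Probe sets 11746764_a_at at -0.78 and 11738827_a_at at -0.72 were the 2 of 6 that differed by at least 1.5-fold for Δe13. They read 6.97 and 6.68 in the empty vector array, 6.20 and 5.96 with Δe13 and 6.42 and 6.42 with the wild type. Probe sets of a gene share the array and partly the transcript, so they repeat the hybridisation and not the culture.

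**Figure D2:**
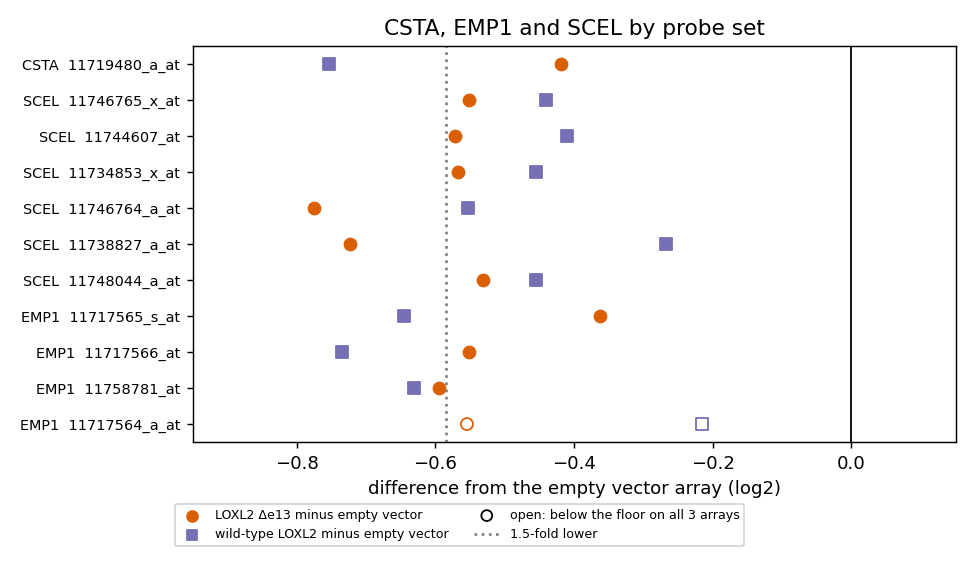
Log2 difference of each LOXL2 array from the empty vector array (horizontal axis) for the 11 probe sets of CSTA, SCEL and EMP1, with filled points for probe sets above the floor on at least 1 array and a dotted line at 1.5-fold lower. All points lie below 0; wild-type points lie further left for CSTA and for the 3 filled rows of EMP1, and Δe13 points lie further left on all 6 rows of SCEL.

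LOXL2 Δe13 was set against the empty vector to ask which genes differ with the splice form. No member above the floor was lower or higher by 1.5-fold or more. Of all 10954 genes that passed the floor, 0.301% were lower by that size and 0.42% higher. Among all genes, 0.347% had a difference as low as that of SCEL or lower, SCEL included. The corresponding share was 1.21% for CSTA, 1.92% for EMP1 and 15.6% for SPRR1A. At a log2 size of 0.32, 3 members (CSTA, SCEL and EMP1) were lower, as were 2.96% of all genes. SCEL was close to the 1.5-fold size. The median of its 6 probe set differences, -0.57, did not reach it, while the difference between the median levels of its probe sets on each array, -0.67, did.

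For wild-type LOXL2 the same control array was used. Of the 4 members above the floor, CSTA and EMP1 were at least 1.5-fold lower, where 0.913% of all genes were, and no member was at least 1.5-fold higher, where 2.01% were. No member reached 2-fold lower, a size that 0.1% of genes had. Only 34 of 10954 genes, or 0.31%, were as low as CSTA or lower. The share was 0.612% for EMP1, 2.61% for SCEL and 19.2% for SPRR1A. Both comparisons share the empty vector array, so a high reading of CSTA, EMP1 or SCEL on that 1 array would lower both differences, and this cannot be told apart from a change in the LOXL2 cells. Fewer cells that express a gene and less RNA per cell cannot be told apart either.

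**Figure D3:**
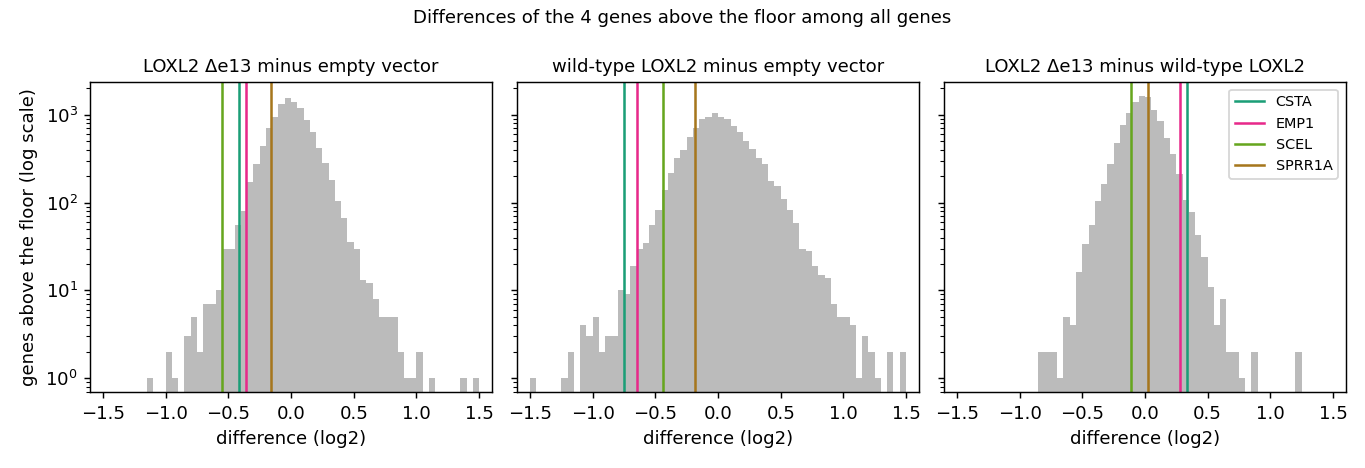
Number of genes above the floor (vertical log axis) by log2 difference in each of the 3 comparisons, without LOXL2 itself and with values beyond 1.5 drawn at 1.5; vertical lines mark CSTA, EMP1, SCEL and SPRR1A. CSTA, EMP1 and SCEL lie in the lower tail against the empty vector, while SPRR1A at -0.16 and -0.18 lies within the bulk.

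The 2 LOXL2 arrays were then compared with each other to ask where the splice form and the wild type differ. CSTA was higher in the Δe13 array by 0.33 (1.26-fold) and EMP1 by 0.28 (1.22-fold), while SCEL differed by -0.11. No member differed by 1.5-fold in this comparison, where 0.119% of genes were at least that much lower and 0.183% at least that much higher. At a log2 size of 0.32, 1 member (CSTA) was higher, as were 2.08% of all genes. EMP1 was higher in the Δe13 array on the 3 probe sets above the floor, by 0.04 to 0.28, and differed by -0.34 on the dim 11717564_a_at. SCEL was lower in the Δe13 array on 6 of 6 probe sets, from -0.46 to -0.08 with a median of -0.14, which is about the spread between probe sets of a gene. The -0.08 came from 11748044_a_at, which was below the floor in both LOXL2 arrays. On the brightest probe sets, the differences of CSTA and EMP1 were larger than that spread and that of SCEL was not.

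The small proline-rich proteins are flexible cross-bridges of the envelope. SPRR1A probe set 11754180_s_at read 6.03 in the empty vector array, 5.87 with Δe13 and 5.84 with the wild type, so that it passed the floor in the empty vector array alone. Its other probe set, 11730911_at, read 4.70, 4.69 and 4.76. The 2 probe sets disagreed in sign for the wild type, at -0.18 and 0.06. The probe set shared by SPRR1A and SPRR1B, 11763759_x_at, read 4.92, 4.82 and 4.75. Names ending in _s_at or _x_at mark probes that can also match other transcripts, and the SPRR genes are close copies, so their signals cannot be split with certainty. SPRR1B read 2.93 in the empty vector array, 3.19 with Δe13 and 3.04 with the wild type. SPRR3, abundant in normal esophageal mucosa, read 5.65, 5.77 and 5.81. No probe set of these 3 SPRR genes differed from the empty vector by more than 0.26 in size.

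IVL, which encodes involucrin, an early precursor of the envelope, read 4.81 in the empty vector array, 4.84 with Δe13 and 4.65 with the wild type. TGM1 encodes the membrane-anchored transglutaminase that joins such precursors, and it read 5.58, 5.45 and 5.54 in that order. Both lay below the floor throughout. Their differences from the empty vector were 0.03 and -0.17 for IVL and -0.13 and -0.04 for TGM1, close to the spread between probe sets.

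S100A8 and S100A9 encode the subunits of calprotectin, a calcium- and zinc-binding protein of suprabasal squamous cells that is also abundant in neutrophils and monocytes. S100A8 read 5.87 in the empty vector array, 5.77 with Δe13 and 5.57 with the wild type. S100A9 read 5.49, 5.27 and 4.96. Both subunits thus had the order seen for CSTA, with the empty vector array highest and the wild-type array lowest, but below the floor on every array. The difference of S100A9 was -0.22 for Δe13 and -0.52 for the wild type, and that of S100A8 -0.10 and -0.30. Of 10 neutrophil and monocyte markers, 2 (CSF3R and CD68) were above the floor, and the mean log2 level over the 10 was 4.77 in the empty vector array, 4.71 with Δe13 and 4.77 with the wild type. PTPRC, the pan-leukocyte marker, was below the floor, as were CD14, FCGR3B, ITGAM, LYZ, FCN1, MPO and ELANE. CD68, a lysosomal protein that other cells also make, read 8.97 in the empty vector array, 8.60 with Δe13 and 8.44 with the wild type.

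Other genes of the same program were taken from 8 lists, which together held 128 genes that are no members. Of these, 120 had a probe set of their own and 58 were above the floor. For Δe13, 43 of the 58 were lower and 15 higher than in the empty vector array, with a median of -0.05, while 51.4% of all genes were lower and their median was -0.01. At least 1.5-fold lower were 4 of the 58 (SERPINB1, SERPINB13, SLPI and DSC3), and 0 were that much higher, where 0.301% and 0.42% of all genes were. For the wild type, 43 were again lower and 15 higher, with a median of -0.12 against 50.1% and 0.00 over all genes, and 2 were at least 1.5-fold lower (SERPINB1 and SLPI) and 1 at least 1.5-fold higher (TMPRSS11E), where 0.913% and 2.01% of all genes were. TMPRSS11E passed the floor in the wild-type array alone, where it was highest, so its count carries no weight. MUC21, counted as lower in both comparisons, passed it in the empty vector array alone, where it was highest, so its count carries none either. The counts are not of independent genes, and the lists were drawn up with results for the members known.

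Proteases and their inhibitors held most of the larger differences. In this list 9 of the 10 genes above the floor were lower in each LOXL2 array, with a median of -0.31 under Δe13 and -0.29 under the wild type. Of all genes, 51.4% were lower under Δe13 and 50.1% under the wild type. Both counts use the same empty vector array, so they are not separate observations. SERPINB1, an inhibitor of neutrophil-type serine proteases, read 10.44 in the empty vector array, 9.78 with Δe13 and 9.53 with the wild type, differences of -0.66 and -0.91. SLPI, a secreted inhibitor of leukocyte proteases, read 6.99, 6.39 and 6.18, differences of -0.60 and -0.81. Both had the array order of CSTA and EMP1. SERPINB13, a squamous serpin that inhibits cathepsins, read 8.15, 7.46 and 7.70, differences of -0.69 and -0.44, with the Δe13 array lowest as for SCEL. KLK5, a kallikrein that starts the shedding of surface cells, differed by -0.27 in each. CSTB, the close relative of CSTA, differed by only -0.04 and -0.02. CST6, a further cystatin, was the gene that was higher, at 0.45 and 0.41, and was picked out after its values were seen.

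**Figure D4:**
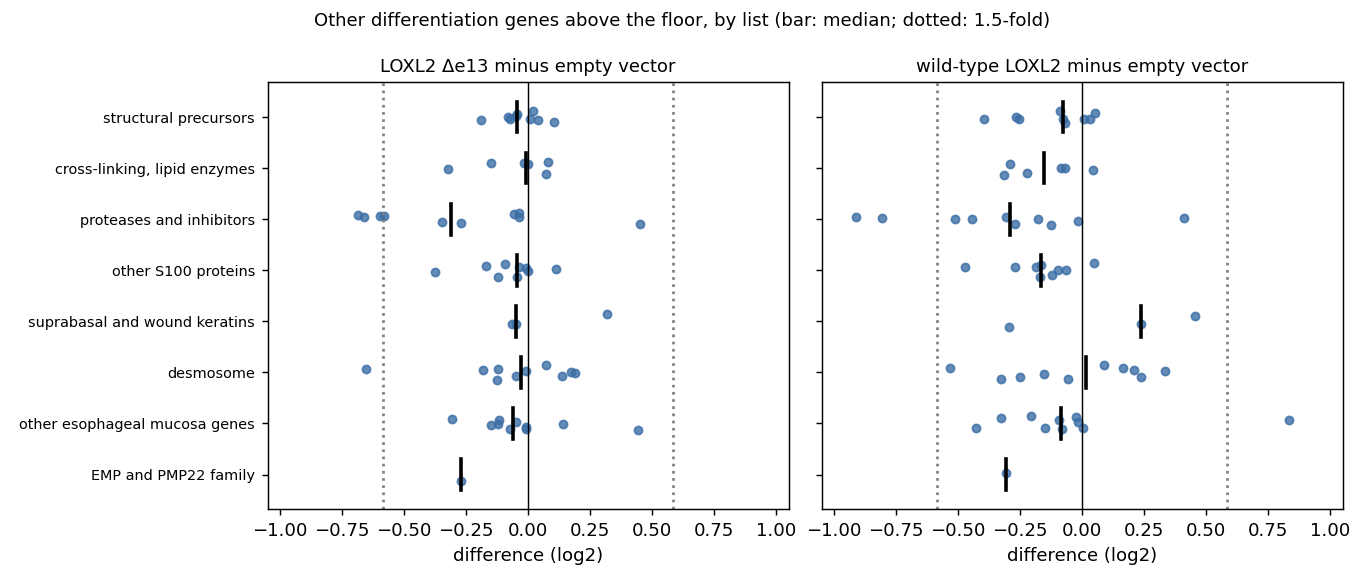
Log2 difference from the empty vector array (horizontal axis) of each gene above the floor in the 8 lists, 1 point per gene, for Δe13 (left) and the wild type (right), with a bar at the median and dotted lines at 1.5-fold. The proteases and inhibitors have medians of -0.31 and -0.29 and reach -0.69 and -0.91.

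Structural precursors had 9 of 27 genes above the floor, with a median of -0.04 under Δe13, of -0.08 under the wild type and none at least 1.5-fold apart. Their brightest entries were ANXA1, an annexin of the membrane (0.04 and 0.03), PPL, a plakin on which the envelope is built (-0.19 and -0.25), and LCE1A, a late envelope protein (-0.05 and -0.27). LORICRIN, FLG2 and the 6 SPRR2 genes measured were below the floor. Cross-linking and barrier lipid enzymes had 6 of 15 above the floor and medians of -0.01 and -0.15. They included the widely expressed transglutaminase TGM2 (-0.02 and -0.08), the glucosylceramide synthase UGCG (0.08 and -0.32) and the membrane protease ST14 (-0.15 and -0.22).

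Other S100 genes had 9 of 14 above the floor, 8 of them lower in each LOXL2 array, with medians of -0.04 and -0.17. Of all genes, 51.4% were lower under Δe13 and 50.1% under the wild type, against the same empty vector array. S100A10, a partner of annexin A2, differed by -0.17 and -0.27, S100A11 by -0.04 and -0.12 and S100A6 by 0.00 and 0.05. Of 11 suprabasal and wound keratins measured, 3 were above the floor. KRT6A, KRT6B, KRT16 and KRT17 had no probe set of their own and so were not measured here. KRT10, a keratin of cornifying cells, read 9.77 in the empty vector array, 10.09 with Δe13 and 10.22 with the wild type, higher by 0.32 and 0.46. KRT80 differed by -0.05 and 0.24 and KRT6C by -0.06 and -0.30. KRT10 was therefore the reverse of CSTA in its array order.

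Desmosome genes, whose products join squamous cells to each other, had 10 of 12 above the floor and medians of -0.03 and 0.02. Desmoplakin (DSP) differed by 0.07 and 0.17, the cadherin DSG2 by 0.17 and 0.21 and PERP by -0.13 and -0.25. These are the brightest probe sets, and of the 2 of DSP above the floor 1 was lower in each LOXL2 array, so they disagreed in sign. DSC3, a cadherin of squamous cells, was lower on 3 of 3 probe sets, reading 7.81 in the empty vector array, 7.16 with Δe13 and 7.28 with the wild type. Of 20 other esophageal mucosa genes, 10 were above the floor, with medians of -0.06 and -0.09. TMPRSS11E, a serine protease of squamous cells, read 5.45 in the empty vector array and 5.90 with Δe13, both below the floor, and 6.28 with the wild type. ECM1 differed by -0.31 and -0.43, CEACAM6 by -0.12 and -0.33 and LYPD3 by -0.15 and -0.21. Of 3 measured relatives of EMP1, EMP2 was above the floor and was lower on 4 of 4 probe sets, by -0.27 and -0.30 on the brightest, while EMP3 and LIM2 were below it.

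IVL, SPRR1A, SPRR1B, SPRR3, S100A8 and S100A9 lie together on chromosome 1 in the epidermal differentiation complex, a cluster of envelope and S100 genes. CSTA lies on chromosome 3, EMP1 on 12, SCEL on 13 and TGM1 on 14. The 3 members that were clearly above the floor and lower in both LOXL2 arrays thus all lie outside the complex. The members inside it lay below or close to the floor, so the members cannot show whether genes of the complex differed less. Between S100A10 and S100A13 the RefSeq table lists 60 protein-coding genes, of which 57 were measured and 20 were above the floor. Of these, LCE1E and SPRR1A passed the floor in the empty vector array alone, where they were highest. S100A14, picked out after its values were seen, was above the floor on all 3 arrays and differed by -0.37 and -0.47. Counting LCE1E and SPRR1A, 13 of the 20 were lower with Δe13 and 7 higher, where 51.4% of all genes were lower. With the wild type 16 were lower and 4 higher, where 50.1% of all genes were lower. None of the 20 differed by 1.5-fold in any comparison. Against the empty vector their medians were -0.06 with Δe13 and -0.14 with the wild type, and between the LOXL2 arrays the median was 0.11, with Δe13 higher. The S100 genes S100A2, S100A6 and S100A11 were its brightest.

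The readings of GC-rich background probe sets also differed between the arrays. The arrays carry control probe sets of random sequence, and the 9 with 17 or more G or C bases in 25 read between 4.80 and 10.84. All 9 were lower in the wild-type array than in the empty vector array, with a median of -0.23, and lower in the Δe13 array with a median of -0.06. The 14 with fewer G or C bases had medians of -0.015 for the wild type and 0.00067 for Δe13. For the 9 LCE genes that passed the floor the medians were -0.26 for the wild type, -0.05 for Δe13 and 0.15 for Δe13 minus wild type, where the 9 GC-rich control probe sets had 0.16. The part of this background in the values of the LCE genes and of the members was not tested.

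**Figure D5:**
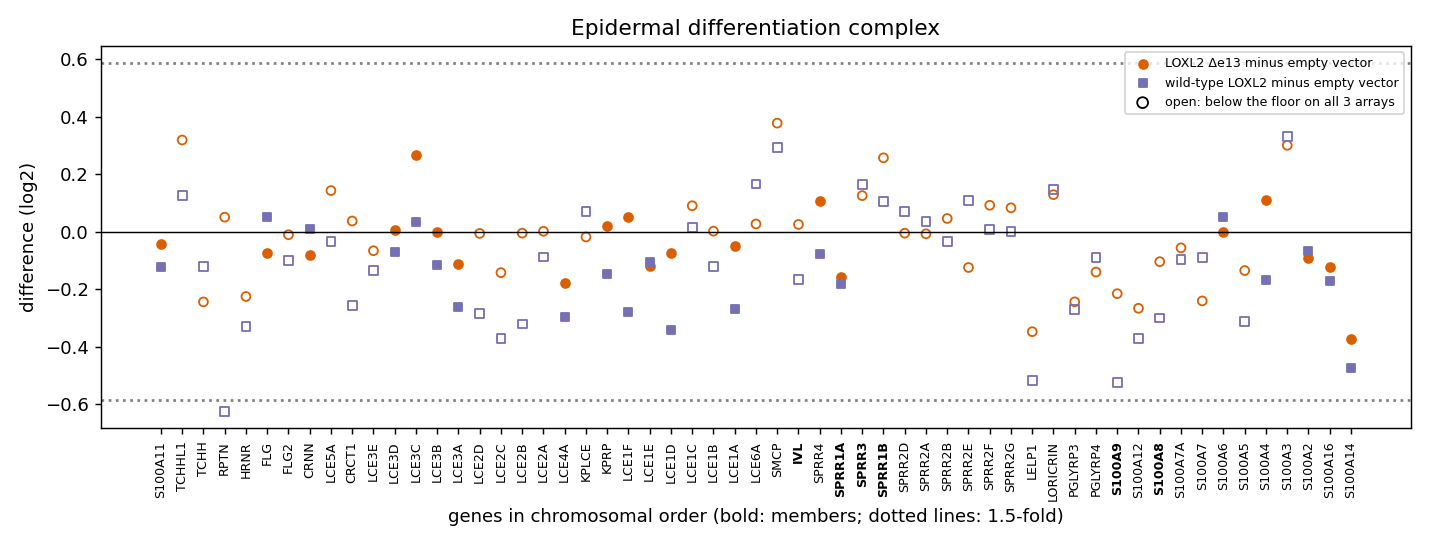
Log2 difference from the empty vector array (vertical axis) of the 57 measured genes of the complex in chromosomal order, with filled points for genes above the floor, members in bold and dotted lines at 1.5-fold. No filled point reaches a dotted line, and the filled wild-type points have a median of -0.14.

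Basal and other cell type markers gave the setting for these values. Among squamous epithelial markers KRT5 differed by -0.17 and -0.09, CDH1 by 0.04 and 0.05 and the basal keratin KRT14 by -0.45 and -0.67. KRT14, a gene of undifferentiated basal cells, was thus lower in the same arrays as CSTA and EMP1, from 7.76 in the empty vector array to 7.30 and 7.08. Of 6 fibroblast markers 1 (PDGFRB) was above the floor, and COL1A1, COL1A2, COL3A1, DCN and LUM were below it. Of 4 endothelial markers 1 (PECAM1) was above it, in the Δe13 array alone.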

How the data were processed

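The values the authors deposited are log2 signals per probe set. The submitters' processing notes name RMA, a method that subtracts background, equalises arrays and combines the probes of a set, without its version. Values from 2.07 to 14.56 point to a log2 scale. Because RMA equalises the arrays, a shift of most genes one way would not show. Of 49293 non-control probe sets, 44988 (91.3%) had a single symbol, 1832 had several and 2473 were unlisted. Symbols came from the platform annotation in GEO, updated through Entrez IDs in RefSeq (GRCh38.p14).

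Genes were counted at 1.5-fold, with 2-fold and a log2 size of 0.32 as alternatives. The 13 gene lists comprised 8 of differentiation genes, 4 of cell type markers and the complex by position. Members and lists were chosen with earlier results of these data known. All members were named, with the 3 brightest genes of each list and those at least 1.5-fold apart. Other settings were the median level over probe sets on each array, centring, quantile normalization, loess (span 0.3), no floor, a floor of 7.86 and, added later, leaving out _s_at and _x_at probe sets. The fold rule was tested on simulated data with planted differences larger than 1.5-fold in genes well above the floor. The simulated noise was smaller than the spread over all genes in these data. That test therefore does not cover dim genes, smaller differences or the error of the counts given here. Python 3.11.15, numpy 2.4.6, pandas 2.3.3, statsmodels 0.14.6 and matplotlib 3.10.9 were used.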

Additional observations from a re-analysis of the deposited data

How the results depend on the processing

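With 1 array per group no replicate could be left out, and no paired analysis was possible because each group has 1 array. CSTA stayed between -0.76 and -0.74 for the wild type against the empty vector and between -0.42 and -0.40 for Δe13. In the same order, EMP1 stayed between -0.73 and -0.63 and between -0.57 and -0.35. SCEL stayed between -0.50 and -0.41 and between -0.67 and -0.55. Each gene had 7 alternatives, but not all could change its value. A floor cannot alter the difference of a gene that passes it. CSTA has 1 probe set, so settings that combine or leave out probe sets could not alter it either. Of 75 member differences under an alternative, 72 moved by less than the spread between probe sets and 0 changed direction at a counted size. The 75 include values that could not move. Only CSTA and EMP1 for the wild type had a counted size, so no other change of direction could be counted. SPRR1A for Δe13 minus wild type, at 0.03 as reported, was -0.01 with loess. No scaling moved the median of all genes by over 0.1.

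At a log2 size of 0.32, 3 members were lower for Δe13 and 1 was higher for Δe13 minus wild type; at 2-fold, 0 were lower for the wild type. With the median level over the probe sets of a gene on each array, 1 member (SCEL, at -0.67, while the median of its probe set differences was -0.57) was at least 1.5-fold lower for Δe13, 0 desmosome genes were, and the relatives of EMP1 had a median of -0.12 for Δe13 minus wild type. With the higher floor, 0 desmosome genes were at least 1.5-fold lower for Δe13 and 1 protease or inhibitor gene (SERPINB1) for the wild type. At that floor the structural precursor median was -0.25 for the wild type and the keratin median 0.13 for Δe13. With no floor, the protease and inhibitor medians were -0.038 for Δe13 and -0.10 for the wild type, and the keratin medians -0.052 for the wild type and 0.10 for Δe13 minus wild type. Also with no floor, 1 structural precursor, RPTN, which lies in the complex as well, was at least 1.5-fold lower for the wild type and, again 1, at least 1.5-fold higher for Δe13 minus wild type. Without _s_at and _x_at probe sets, a choice made after seeing the data, 0 other mucosa genes were at least 1.5-fold higher for the wild type. A floor changes which genes are counted, so these medians cover different genes. Dim signals near the floor and the number of arrays limit the precision.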
